A study of Cyanidioschyzon merolae with 8 samples.

Results

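Transcript levels of the nuclear genes of Cyanidioschyzon merolae were compared between cells given red light and cells given blue light, with the dark controls of the same experiments beside them. C. merolae is a red alga that lives as single cells in hot, acidic springs, and all cells were wild type, strain 10D. The comparison covers 4586 genes on chromosomes 1 to 20 that reached at least 1 FPKM under both lights. They are part of 4793 nuclear gene IDs and 5091 gene IDs in all. FPKM counts sequenced fragments scaled by how long the transcript is and how many fragments were mapped. The other 207 nuclear IDs were below 1 FPKM under at least 1 light, 102 of them listed at 0 under both.

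The 8 libraries form 4 groups of 2 biological replicates: blue light, its dark control, red light, and its own dark control. Every culture grew at pH 2.3 and 42 °C, lit continuously at 100 µmol m-2 s-1. Per the labels, dark-kept cells had 36 h of darkness, and lit cells then received 30 min of light. Blue light was given at 15 µmol m-2 s-1, measured at 365 nm; for red light the wavelength of measurement was 630 nm, and no intensity is stated. RNA was selected on oligo(dT) beads.

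Each condition has 1 deposited value per gene, in which the replicates are already combined, so no SD, no depth and no test of red against blue can be given. The lit groups belong to separate experiments, so the light and the experiment cannot be told apart from these values. The ratio of the dark controls gives how far the deposited values of the experiments differ without light, and the spread of replicates within it is unknown. It is a description too. In such bulk samples, fewer cells that express a gene and less RNA per cell cannot be told apart. No source used here pairs the gene IDs with a function, so genes are described by ID, position and level.

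Red algae collect light with chlorophyll a antennae and with phycobilisomes, protein complexes that absorb light including the orange and red part of the spectrum. Blue light is absorbed by chlorophyll and carotenoids, and also by flavin-binding photoreceptors such as the cryptochromes. Most proteins of the chloroplast are encoded in the nucleus, so a response of the organelle to light can involve nuclear transcripts.

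Most nuclear transcripts stood at similar levels under both lights, and those that differed 2-fold were more often lower under red light. The steepest differences ran the other way. At least 2-fold higher under red than under blue light were 320 genes, and 754 were at least 2-fold lower, while 3512 genes, or 76.6%, stayed within 2-fold. Over all IDs of the table with both values, organelles included, 6.99% were 2-fold higher and 16.7% 2-fold lower, 23.6% in all. At 4-fold the numbers were 77 higher and 66 lower, at 8-fold 34 and 5, and at 16-fold 16 and 1.

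The middle of the distribution lay slightly below 0. The median log2(red/blue) in lit cells was -0.19, a level 1.14-fold lower under red light, and the quartiles were -0.75 and 0.33. Of the 4586 genes, 2741 were lower and 1845 higher under red light. After the ratios were centred on that median, 463 genes were 2-fold higher and 530 lower. The share of higher genes among those 2-fold apart is thus 29.8% as deposited and 46.6% after centring. Whether the conditions were scaled together is not stated. Across genes, log2 FPKM in the lit conditions correlated with Pearson's r = 0.83 and Spearman's rho = 0.81. Genes are not independent replicates, and all points share the same libraries.

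**Figure D1:**
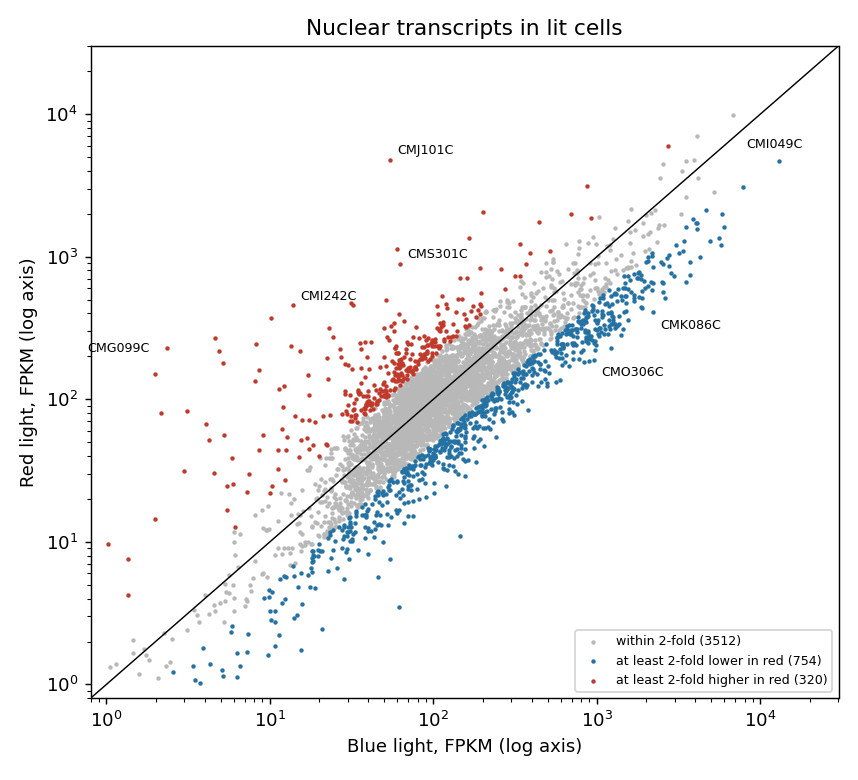
Each point is 1 of 4586 nuclear genes, with its FPKM under blue light (horizontal, log axis) and under red light (vertical, log axis). The black line marks equal levels. The 754 genes 2-fold lower under red light form a band along the line, while the 320 higher genes include scattered points far above it, such as CMJ101C at 54.2 and 4784 FPKM.

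The most abundant transcripts under both lights were mostly lower under red light, while a wider class of abundant genes was close to the median of all. The 100 most abundant nuclear transcripts held 26.6% of the nuclear FPKM under blue light and 22.4% under red light. Of these, 61 were among the 100 under both lights. The median log2 ratio of those 61 was -0.87, with 28 genes 2-fold lower and 1 higher. The 39 genes abundant under blue light alone had a median of 1878 FPKM under blue and 660 under red light, and their dark controls also differed, at 543 and 188 FPKM. The 39 abundant under red light alone had a median of 772 FPKM under blue and 1127 under red light, a median log2 ratio of 0.73, with a dark median of 0.05. Being among the 100 under 1 light alone favours a higher value there by choice. The 1147 genes of the highest of 4 classes of mean level had a median lit ratio of -0.19, as did all genes.

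CMI049C, on chromosome 9 at 143820 to 145044, was the most abundant transcript under blue light, at 12937 FPKM against 4710 under red light. Its dark controls stood at 5784 FPKM in the blue and 1287 in the red experiment, so the lit difference of -1.46 on the log2 scale was smaller than the dark difference of -2.17. CMJ148C, on chromosome 10 at 420843 to 421196, showed the same arrangement with 7834 FPKM under blue and 3066 under red light, and 3177 and 645 FPKM in the dark. CMK024C, on chromosome 11 at 65472 to 65991, was highest of all in the dark, at 27373 FPKM in the blue and 14596 in the red experiment. Under light it stood at 6796 FPKM in blue and 9906 in red, within 2-fold. CMK296C, on chromosome 11 at 805448 to 805852, stood at 4063 FPKM under blue and 7022 under red light, with 3656 and 4072 FPKM in the dark controls. The sources used here do not name the genome build of these positions.

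Where lit cells differed, blue light usually stood at an extreme of the 4 conditions. Among the 320 genes higher under red light, blue light was the lowest of the 4 conditions for 282, or 88.1%, and red light the highest for 51, or 15.9%. Among the 754 genes lower under red light, blue light was the highest for 635, or 84.2%, and red light the lowest for 185, or 24.5%. Over all 4586 genes, blue light was lowest for 29.0% and highest for 34.4%, and red light lowest for 24.6% and highest for 8.33%. A gene higher under red light cannot have red as its lowest value, so part of these shares follows from the choice of genes.

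The 34 genes at least 8-fold higher under red light show this most plainly. Their median was 11.7 FPKM under blue light and 222 under red light, against 322 and 448 FPKM in the blue and red experiments' dark controls. Blue light was the lowest of the 4 conditions for 31 of the 34, and red light was also below its own dark control for 26. Most of these transcripts were thus highest in dark-kept cells and had lower values under both lights, with the lowest under blue. In the authors' deposited table, where 18.4% of all tested IDs fell and 22.2% rose under blue light at a q-value under 0.05, 23 of the 34 fell and 0 rose. For red light the table holds 27.1% that fell and 14.9% that rose, and 18 of the 34 fell and 5 rose. These calls use the lit values that chose the genes, so nothing is read from the shares. Loci of at least 300 bp with 1 ID made up 31 of the 34.

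**Figure D2:**
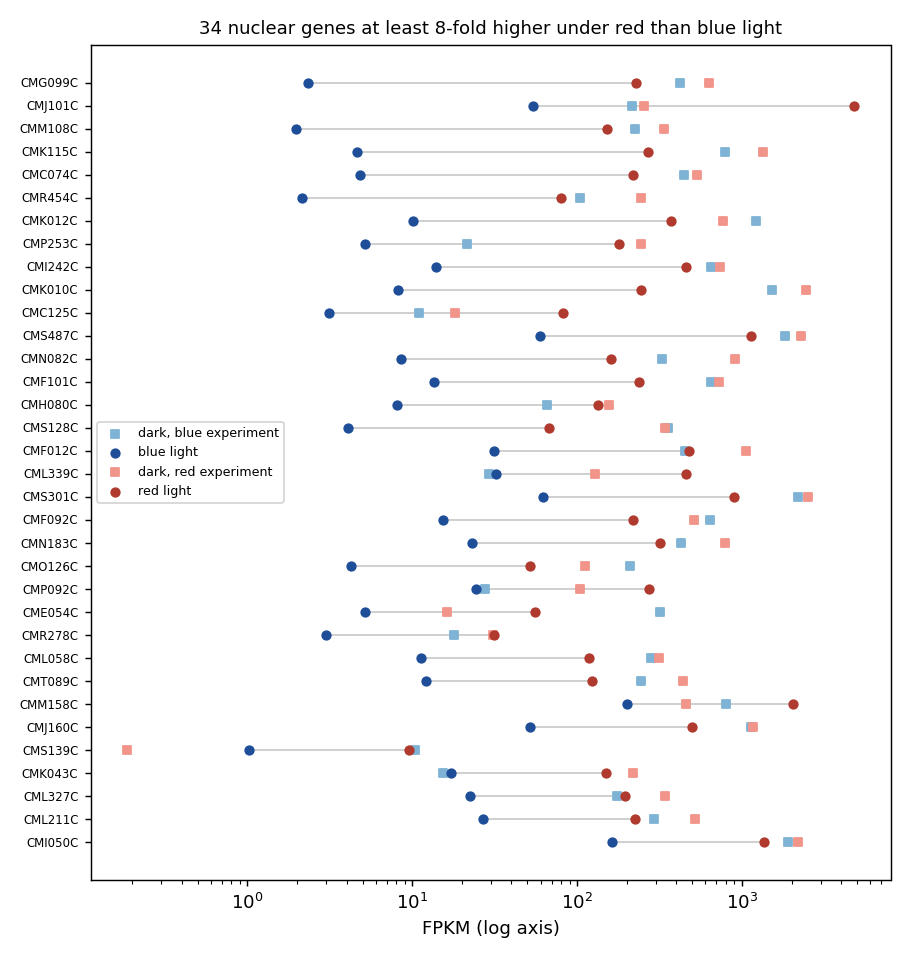
FPKM (log axis) of the 34 nuclear genes at least 8-fold higher under red than under blue light, 1 gene per row, ordered by the ratio; circles are lit cells and squares dark controls. Blue light lies to the left of all other marks in 31 rows, and red light lies to the right of all others in 6 rows.

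CMG099C, on chromosome 7 at 254111 to 255554, had the widest lit ratio of all, with 2.35 FPKM under blue and 227 under red light, a log2 ratio of 6.59. In the dark it stood at 420 FPKM in the blue and 629 in the red experiment. CMM108C, on chromosome 13 at 247200 to 249086, followed the same order, with 1.99 FPKM under blue light, 151 under red light, and 225 and 338 FPKM in the dark. CMK115C, on chromosome 11 at 320823 to 323145, stood at 4.63 FPKM under blue light and 269 under red light, and at 784 and 1331 FPKM in the dark. In each of these genes both dark controls were the highest values, red light lay between, and blue light lay lowest by a wide margin. These 3 genes were named for their ratio after the values were seen.

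The other direction was rarer at this size. The 5 genes at least 8-fold lower under red light had at most 11.0 FPKM there and between 15.6 and 146 FPKM under blue light. EPlCMEG00000000057 and EPlCMEG00000000089 are 2 of them, and RefSeq lists a ribosomal RNA between the neighbours of each. CMQ083C stood at 15.6 FPKM under blue and 1.74 under red light, with both dark controls below 1. CMN147C stood at 20.7 and 2.44 FPKM, and CML083C, which shares its locus with another ID, at 45.6 and 5.67.

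The dark controls differed about as often as the lit cells. Of 4534 genes with all 4 values at least 1 FPKM, 562 were at least 2-fold higher and 544 at least 2-fold lower in the red experiment's dark control. Over all IDs, 12.3% were 2-fold higher and 13.1% lower there, 25.4% in all. The median dark ratio was 0.18, opposite in sign to the lit median, and the quartiles were -0.43 and 0.66. After centring on that median, 380 were 2-fold higher and 686 lower, so the share of higher genes among those 2-fold apart was 50.8% as deposited and 35.6% after centring. As deposited, steep dark differences leaned to the low side, with 22 genes at least 8-fold higher and 52 at least 8-fold lower in the red experiment, whereas steep lit differences leaned to the high side.

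Lit and dark ratios went together in part. Across the 4534 genes Pearson's r was 0.42 and Spearman's rho 0.45, as a description. The lit and the dark pair share no libraries, but each pair sets the same red experiment against the same blue experiment. Of the genes 2-fold apart in lit cells, 417 were 2-fold apart the same way in the dark: 114 were higher and 303 lower in the red experiment in both. Another 574 were within 2-fold in the dark, 194 of them higher and 380 lower under red light. Only 52 were 2-fold apart in opposite ways, 11 higher when lit and lower in the dark, and 41 the reverse.

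**Figure D3:**
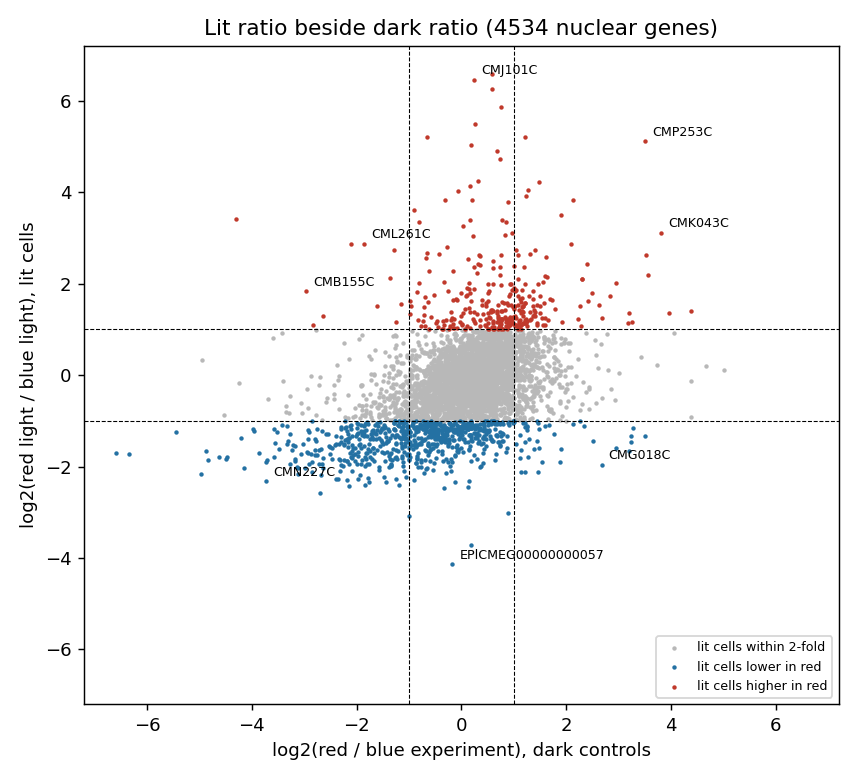
Each point is 1 of 4534 nuclear genes, with log2(red/blue experiment) of the dark controls (horizontal) and log2(red/blue) of the lit cells (vertical). Dashed lines mark 2-fold. Points in the upper right and lower left (114 and 303 genes) differ the same way in light and dark, and those above and below the middle (194 and 380) differ in lit cells with the dark controls within 2-fold.

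Genes with a large dark difference were followed into the light. Of 165 genes at least 4-fold lower in the red experiment's dark control, 122 were also 2-fold lower under red light and 38 were within 2-fold. Their median log2 ratio was -2.68 in the dark and -1.46 in lit cells. On the high side, of 73 genes at least 4-fold higher in the red experiment's dark control, 23 were 2-fold higher under red light, 39 within 2-fold and 11 2-fold lower. Their median was 2.57 in the dark and 0.18 in lit cells. These genes were chosen for their dark ratio, so a smaller lit ratio follows in part from the choice. Of all genes, 16.4% were 2-fold lower and 6.98% higher when lit, and the difference between both sides was not tested.

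The 574 genes with a lit difference and a dark ratio within 2-fold were mostly high in the dark where they were higher under red light, and mostly high under blue light where they were lower. For the 194 higher genes the median FPKM was 212 in the dark and 61.4 under blue light, and 305 in the dark and 191 under red light. Both responses were negative for 155 of them, and in each of those 155 the blue response was the larger in size, which follows from how the genes were chosen. Of the 194, in the authors' deposited table, 152 fell under blue light and 84 under red light, 83 of them under both, against 18.4% and 27.1% of all tested IDs. These calls and those of the lower genes use the lit values that chose the genes, so nothing is read from them. For the 380 lower genes the median was 59.2 FPKM in the dark and 155 under blue light, and 56.4 in the dark and 63.2 under red light. Both responses were positive for 207 of them, and of all 380, in the authors' deposited table, a count of 224 rose under blue light and 89 under red light, each of the 89 under both, against 22.2% and 14.9% of all tested IDs. Under red light 65 of the 380 fell, against 27.1% of all tested IDs, and 54 of these were not called under blue light.

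Individual genes with level dark controls make the difference visible. These were chosen among 1881 genes in loci of at least 300 bp with 1 ID, at least 20 FPKM in the higher lit condition and a dark log2 ratio between -0.5 and 0.5. Of those, 74 were 2-fold higher and 191 2-fold lower under red light. Over all 4586 genes, 320 or 6.98% were 2-fold higher and 754 or 16.4% lower. The 6 widest on each side follow.

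CMJ101C, on chromosome 10 at 295921 to 296640, stood at 54.2 FPKM under blue light and 4784 under red light. Its dark controls were at 216 and 256 FPKM in the blue and the red experiment, so it was 3.995-fold lower than in the dark under blue light and 18.7-fold higher under red light. The lit log2 ratio was 6.46. It is the gene of the 6 whose red value lies above both dark controls.

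The other 5 were high in the dark and lower under both lights. CMC074C, on chromosome 3 at 173643 to 175529, had 4.85 FPKM under blue and 218 under red light, from 446 and 536 FPKM in the dark. CMI242C, on chromosome 9 at 650627 to 651151, had 13.9 and 457 FPKM in the lit cells and 648 and 740 FPKM in the dark. CMS487C, on chromosome 19 at 1224679 to 1225065, had 59.8 and 1127 FPKM in the lit cells and 1834 and 2291 FPKM in the dark.

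CMC074C was thus 91.9-fold below its dark control under blue light and 2.46-fold below under red light. For CMI242C these folds were 46.5 and 1.62, and in the authors' deposited table its red q-value of 0.0673 does not pass 0.05. CMF101C, on chromosome 6 at 276190 to 278151, stood at 13.5 FPKM under blue and 236 under red light, with 649 and 723 in the dark. CMS128C, on chromosome 19 at 330382 to 333043, stood at 4.09 and 67.2 FPKM in the lit cells and at 356 and 342 FPKM in the dark. The lit log2 ratios of the 5 ran from 4.04 to 5.49.

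Among the 6 lowest, EPlCMEG00000000057 and EPlCMEG00000000089 come first, both on chromosome 17, at 788901 to 790695 and at 1042283 to 1044075. The former stood at 61.5 FPKM under blue and 3.49 under red light, with 44.7 and 39.5 FPKM in the dark. The latter stood at 146 and 11.0 FPKM in the lit cells, with 111 and 126 FPKM in the dark. In these 2, red light is the value that departs from the other 3 conditions. Ribosomal RNA carries no poly(A) tail, and its level after oligo(dT) selection depends on how the selection worked; its part in these values was not tested.

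The other 4 rose under blue light, and 3 of them under red light as well, in the authors' deposited table. CMK086C, on chromosome 11 at 243562 to 244641, had 2210 FPKM under blue and 407 under red light, from 250 and 275 FPKM in the dark. Its red q-value of 0.375 in the authors' deposited table does not pass 0.05. CMO306C, on chromosome 15 at 763738 to 764899, had 953 and 189 FPKM in the lit cells, from 4.55 and 4.19 FPKM in the dark. CMK188C, on chromosome 11 at 521513 to 523052, had 979 and 220 FPKM in the lit cells, from 11.3 and 9.24 in the dark.

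CME041C, on chromosome 5 at 112071 to 113055, had 1881 FPKM under blue and 436 under red light, from 93.9 and 82.1 in the dark. In all 4 the dark controls were nearly level and blue light was the highest value. Their lit log2 ratios lay between -2.44 and -2.11.

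**Figure D4:**
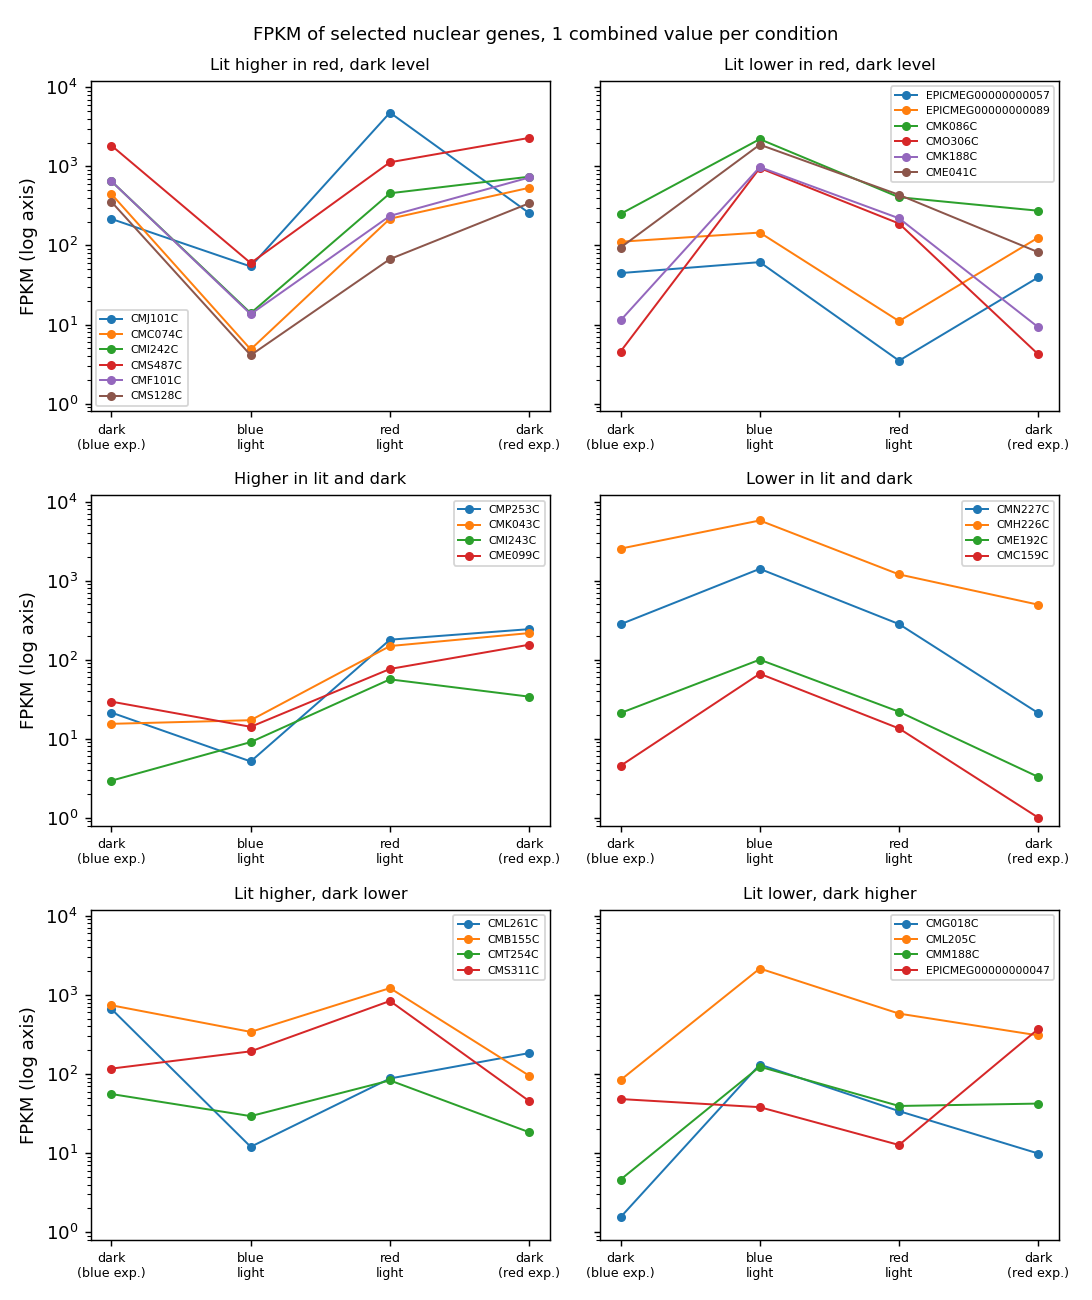
FPKM (log axis) of 28 nuclear genes in the 4 conditions, 1 combined value each, in panels by how lit cells and dark controls differ; lines only join the values of a gene. In the upper left panel blue light is the lowest value of all 6 genes, and in the middle right panel blue light is the highest value and the red experiment's dark control the lowest for all 4 genes.

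Genes apart the same way in light and dark differed between the experiments in both states. CMP253C, on chromosome 16 at 639071 to 640316, stood at 5.17 FPKM under blue and 179 under red light, and at 21.4 and 243 FPKM in the dark. CMK043C, on chromosome 11 at 122976 to 124479, stood at 17.2 and 149 FPKM in the lit cells and at 15.5 and 217 FPKM in the dark. CMI243C, on chromosome 9 at 652766 to 654169, stood at 9.08 and 56.4 FPKM in the lit cells and at 2.95 and 34.1 in the dark. CME099C, on chromosome 5 at 276598 to 277425, stood at 14.2 and 76.4 FPKM in the lit cells and at 29.5 and 155 in the dark. In the authors' deposited table, CMP253C, CMK043C and CMI243C were not tested under blue light and not called under red light. CME099C was called under red light alone, as a fall.

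For CMK043C the values of each experiment lay within 1.5-fold of each other, and the experiments were 8.67-fold apart in the light and 14.0-fold apart in the dark. The 4 genes on the lower side had higher values in the light than in the dark in both experiments. CMN227C, on chromosome 14 at 557638 to 558819, stood at 1410 FPKM under blue and 282 under red light, from 281 and 21.1 FPKM in the dark. CMH226C, on chromosome 8 at 577185 to 578537, stood at 5766 and 1199 FPKM in the lit cells and at 2539 and 496 FPKM in the dark, and in the authors' deposited table neither response was called.

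CME192C, on chromosome 5 at 496971 to 498258, stood at 100 FPKM under blue and 21.98 under red light, from 21.2 and 3.29 in the dark. CMC159C, on chromosome 3 at 386659 to 387612, stood at 66.4 and 13.5 FPKM in the lit cells, from 4.55 and 1.01 FPKM in the dark. Its dark value of 1.01 lies just above the bound of 1 FPKM, and its red response was not tested in the authors' deposited table. All 4 had higher values in the blue than in the red experiment in both states, and blue light was the highest value of each.

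Genes apart in opposite ways cross over between darkness and light. CML261C, on chromosome 12 at 676079 to 676529, stood at 12.0 FPKM under blue and 87.7 under red light, against 664 and 184 FPKM in the dark. CMB155C, on chromosome 2 at 425376 to 425699, stood at 340 and 1219 FPKM in the lit cells, against 739 and 95.1 FPKM in the dark. CMS311C, on chromosome 19 at 802258 to 803027, stood at 193 and 838 FPKM in the lit cells, against 117 and 45.4 in the dark. CMT254C, on chromosome 20 at 633468 to 634109, stood at 29.3 and 82.9 FPKM in the lit cells, against 55.8 and 18.3 in the dark.

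For CMB155C, CMS311C and CMT254C red light was the highest of the 4 values. Of the 4 named genes that were lower when lit and higher in the dark, 3 had blue light as the highest value. CMG018C, on chromosome 7 at 49584 to 51291, stood at 132 FPKM under blue and 33.9 under red light, from 1.54 and 9.86 FPKM in the dark. CML205C, on chromosome 12 at 515630 to 517705, stood at 2156 and 580 FPKM in the lit cells, from 83.8 and 307 in the dark. CMM188C, on chromosome 13 at 464042 to 472201, stood at 124 and 39.4 FPKM in the lit cells, from 4.61 and 42.2 in the dark.

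EPlCMEG00000000047, on chromosome 18 at 500241 to 503815, is the fourth and a further ribosomal RNA position, and blue light was not its highest value. It stood at 38.0 FPKM under blue and 12.6 under red light, and at 48.2 and 371 FPKM in the dark, so the dark value of the red experiment is the one that departs. Of 9 such positions in the nuclear genome, 4 reached 1 FPKM under both lights, and 3 of those were 2-fold lower under red light.

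Sorted by the authors' calls, the lit median was lowest where both lights raised a gene and highest where blue light lowered it, whether red light was called lower or not at all. Each call sets a lit value against its dark control, so the classes use both values and the medians are a description. Among 458 genes that rose under both lights in the authors' deposited table, 404 stood lower under red than under blue light, 218 of them at least 2-fold, with a median of -0.96. Their dark controls had a median ratio of -0.41. Among 507 genes that fell under both, 391 stood higher under red light, 133 at least 2-fold, with a median of 0.52 in lit cells and 0.46 in the dark. The median responses of these 507 were nearly equal, -1.22 under blue and -1.23 under red light, so their lit gap was close to the gap already present in the dark.

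Of the genes called under 1 light only, those that rose under blue light had a lit median of -0.74 over 468 genes, and those that fell under blue light 0.56 over 292. Their dark medians were 0.43 and -0.24, opposite in sign to the lit medians. That follows in part from the choice, because a called rise favours a low dark value and a called fall a high one. Of those called under red light only, 154 that rose had a median of -0.48 in lit cells and -1.27 in the dark, and 651 that fell had -0.26 and 0.64. In both of these classes the lit median was closer to 0 than the dark median, which follows in part from the same choice. For the 154 genes the medians in the red experiment were 91.1 FPKM in the dark and 253 under red light, against 236 and 294 FPKM in the blue experiment. For the 651 the median FPKM was 143 in the dark and 66.0 under red light, against 89.6 and 74.3. The 1768 genes called under neither light had a lit median of -0.09 and a dark median of 0.04.

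**Figure D5:**
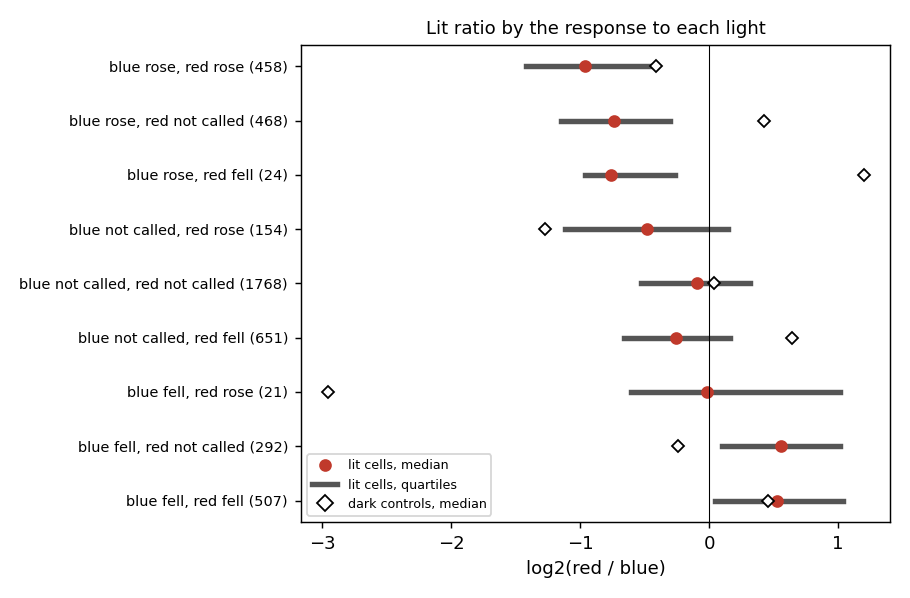
Median (red circle) and quartiles (grey bar) of log2(red/blue) in lit cells and median of the dark controls (open diamond), for nuclear genes classed by the authors' calls under each light, with the number of genes in brackets. The lit median is -0.96 where both lights raised the gene and 0.52 where both lowered it. Where red light alone was called, the lit median lies closer to 0 than the dark median, in part by the choice of genes.

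The lit ratio varied little with the place of a gene. The median was below 0 on each of the 20 nuclear chromosomes, from -0.33 on chromosome 10 to -0.03 on chromosome 4, and each chromosome had more genes 2-fold lower than higher. Among 363 genes within the outermost 10 IDs of a chromosome end, 8.54% were 2-fold higher and 19.8% lower, against 6.84% and 16.1% of the 4223 inner genes. Outside the nucleus, 123 chloroplast IDs with both lit values had a median of -0.35 in lit cells and -1.42 in the dark. Of these, 31 (25.2%) were 2-fold lower and 9 (7.32%) higher under red light, against 16.4% and 6.98% of nuclear genes. Only 50 of the 123 lie in loci of at least 300 bp with 1 ID, 11 of them lower and 4 higher. The part of the oligo(dT) selection in the chloroplast values was not tested.

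Length and level went with the ratio weakly, and differently in light and dark. In the shortest of 4 equal classes of locus length (123 to 859 bp) the lit median was -0.08 and the dark median -0.05, and in the longest (2008 to 18063 bp) they were -0.39 and 0.36. Spearman's rho between length and ratio across genes was -0.14 in lit cells and 0.20 in the dark. By mean level over the 4 conditions, the 1147 genes of the lowest class, up to 65.7 FPKM, had 23.2% lower and 3.23% higher under red light. The 1147 of the highest class, from 205 FPKM, had 23.7% lower and 11.9% higher. In the middle classes 9.34% and 9.51% were lower.

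Neighbouring genes shared a lit difference somewhat more often than others did. Of genes 2-fold lower under red light, 23.7% had a next gene that was lower too, against 14.9% of the other genes, over 4479 pairs of successive genes in separate loci. For genes 2-fold higher the shares were 10.9% and 6.67%. In the dark controls the shares were 16.6% and 11.2% for lower genes and 15.3% and 11.8% for higher genes. No label speaks of a kit that keeps the strand, so reads cannot be split between overlapping neighbours by strand. Runs of at least 3 neighbouring members in 1 direction numbered 29 on the lower and 4 on the higher side. Of all genes 16.4% were 2-fold lower and 6.98% higher, so more runs on the lower side follow in part from these shares.

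The longest run held 6 genes on chromosome 3, from CMC152C at 364900 to CMC159C at 387612, each 2-fold lower under red light. CMC158C, second to last in it, stood at 144 FPKM under blue and 41.9 under red light, from 5.03 and 1.28 FPKM in the dark. CMC157C stood at 120 and 24.8 FPKM in the lit cells, from 10.4 and 2.66 in the dark. CMC156C stood at 70.3 and 26.7 FPKM in the lit cells, from 20.1 and 9.07 in the dark. In these 3 genes and in CMC159C both lights gave higher values than darkness, and the blue experiment was higher in both states.

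On the higher side, 4 neighbours on chromosome 20, CMT071C to CMT074C, between 181259 and 191529, stood 2-fold higher under red light. CMT072C was at 22.6 FPKM under blue and 139 under red light, from 273 and 577 FPKM in the dark. CMT073C was at 5.83 and 38.9 FPKM in the lit cells, from 105 and 215 in the dark. The lit log2 ratios of the 4 ran from 1.22 to 2.74, and their dark ratios from 0.97 to 1.08. CMI242C and CMI243C, named above, belong to a run of 3 on chromosome 9 with CMI244C, at 55.2 FPKM under blue and 324 under red light and at 1469 and 915 FPKM in the dark. The runs were named after the values were seen.

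The bound of 1 FPKM removed some wide differences. Just inside it lay CMS139C, at 1.02 FPKM under blue and 9.61 under red light, and CMI089C, at 3.75 and 1.03. Just outside lay CMR219C, at 1.86 FPKM under blue and 0.981 under red light, and CMG022C, at 2.13 and 0.973. Of the IDs left out, 6 in loci of at least 300 bp with 1 ID reached 20 FPKM under 1 light, and in all 6 that was red light. CMB089C, on chromosome 2 at 253758 to 254580, was listed at 0 under blue light and at 135 FPKM under red light, from 233 and 476 FPKM in the dark. CMN051C, on chromosome 14 at 122300 to 122978, was listed at 0 and stood at 58.8 FPKM in red light, from 324 and 347 in the dark.

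CMH216C, on chromosome 8 at 556712 to 558599, stood at 0.558 FPKM under blue and 183 under red light, from 281 and 461 FPKM in the dark. CMQ418C, on chromosome 17 at 1082338 to 1084225, stood at 0.711 and 157 FPKM in the lit cells, from 279 and 381 in the dark. These 4 show the order seen in most of the 34 steep members, with both dark controls highest and blue light lowest. CMR408C had the same order, listed at 0 under blue and at 23.5 FPKM under red light, from 51.0 and 64.2 in the dark. CMT333C was listed at 0 under blue light and stood at 94.9 FPKM under red light, with 1.499 and 201 FPKM in the dark, so that its dark controls differed as well. CMB089C, CMN051C and CMR408C, each listed at 0 under blue light, had blue q-values of 0.00045 in the authors' deposited table. Whether any value of exactly 0 stands for an estimate that failed was not tested.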

How the data were processed

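RNA of 8 libraries was measured by sequencing, with reads of 75 bp from both ends. Per the submitters' processing notes, Cuffdiff, TopHat, TopHat2 2.0.5, Trimmomatic 0.32 and FastQC 0.11.5 were used; a build and an annotation are not named there. The authors deposited FPKM values, 1 per gene and condition, with the 2 replicates combined, and whether the 4 conditions were scaled together is not stated. The authors' deposited q-value of each light against its dark control was used as given, with 0.05 as threshold, because the test foreseen for library counts could not be made. The p-values that the authors deposited were not used further.

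From these, log2 ratios were computed with no pseudocount, over nuclear genes with both lit FPKM at least 1, and dark ratios where both dark values reached 1. A gene differed at 2-fold or more. Locus starts, counted from 0 in the file, are given from 1. Sequencing depth is unknown. Replicates are biological by the labels. The RefSeq table of gene entries matched 4752 IDs and holds no symbol other than locus tags, so no gene list by function or family could be formed. Named genes were chosen in loci of at least 300 bp with 1 ID and at least 20 FPKM in the higher lit condition: the 6 highest and 6 lowest lit ratios with a dark log2 ratio within 0.5, the 4 with the largest smaller ratio in each class of joint or opposite difference, and the 4 most abundant. The steep members, the runs and the IDs below 1 FPKM were chosen after their values were seen. The genes compared and all lists were chosen with earlier results of these data known. Python 3.11.15, numpy 2.4.6, pandas 2.3.3 and matplotlib 3.10.9 were used, and the counting was tested on simulated data.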

Additional observations from a re-analysis of the deposited data

Results flagged for a closer look

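Among the 32 genes named by rule, CMJ101C and CMB155C were set apart because the responses to the lights ran in opposite directions, with both called in the authors' deposited table. For CMJ101C the red response exceeded the blue response by 6.22 on the log2 scale, and for CMB155C by 4.80. Genes outside that rule were not screened. There were 4343 nuclear genes tested under both lights and with all 4 values at least 1 FPKM. In the authors' deposited table, 21 of them fell under blue and rose under red light, and 24 did the reverse. Over all tested IDs, 18.4% fell and 22.2% rose under blue light, and 27.1% fell and 14.9% rose under red light. The difference between the responses was not tested.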

How the results depend on the processing

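Of 64 values computed under 10 alternatives, 61 kept their direction and stayed within 1.5 times a count or within 0.1 of a median, and 0 changed sign. The genes 2-fold apart in opposite ways in light and dark went from 52 to 29 when all values had to reach 10 FPKM. That bound took the genes with a dark ratio from 4534 to 4247, and those apart the same way from 417 to 339. Those apart in lit cells and within 2-fold in the dark went from 574 to 518. The opposite class thus held a larger share of genes with a value below 10 FPKM, such as CMG018C, at 1.54 and 9.86 FPKM in the dark. With ratios centred on their median, both medians are 0 by construction. Centring also took the genes higher under red light from 320 to 463, still within 1.5 times. Upper quartile scaling took the lit median from -0.19 to -0.11 and the dark median from 0.18 to 0.08, still within 0.1. The share of higher genes among those 2-fold apart in lit cells was between 28.9% and 36.0% under the alternatives other than centring. Leaving out the ribosomal RNA positions was added after seeing the data and left 320 genes higher and 751 lower. No paired analysis was possible because each condition has 1 combined value, and for the same reason no replicate could be left out. Depth is unknown, so the error of low values, such as the blue light values of the steep members, cannot be given.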

Other observations

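Several of the widest lit differences lie in loci of the same length. Nuclear loci of 1887 or 1888 bp carry 9 IDs, and 4 of these, CMC074C, CMM108C, CMH216C and CMQ418C, each on another chromosome, stood below 5 FPKM under blue light and at 151 to 218 FPKM under red light, with dark values from 225 to 536 FPKM. The blue falls of CMH216C and CMQ418C were not called in the authors' deposited table. CML157C and CML324C, of the same length and both on chromosome 12, had similar dark values, at 292 and 332 FPKM in the blue and 435 and 424 in the red experiment. Under blue light they stood at 112 and 191 FPKM and under red light at 196 and 204, within 2-fold. Whether these loci hold copies of 1 sequence that share reads was not analysed here. The length was looked at after the values were seen.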
